A study of Equus caballus with 15 samples.

Results

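The 10 genes described here encode the orphan nuclear receptors NR4A1, NR4A2 and NR4A3, the zinc finger transcription factors EGR1, EGR2 and EGR3, the activity-regulated protein ARC, and the immediate early response proteins IER2, IER3 and IER5. They were taken by gene symbol from the 16932 genes measured in equine monocyte-derived macrophages, and each symbol was found once. The genes were selected on measured values, since ARC had been seen to be lower with IL-1ß than in untreated macrophages and NR4A3 to be higher with autologous conditioned serum (ACS) than with IL-1ß alone. The levels in those 2 comparisons are therefore given as a description with no test. For the same reason ARC was not tested in any comparison that holds the IL-1ß or the untreated libraries, and NR4A3 was not tested in any that holds the IL-1ß or the ACS libraries. All 10 genes passed the filter on low values, a mean of at least 1 CPM (counts per 1e6 counted reads) over all libraries.

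The study asked how macrophages respond to 3 orthobiologic therapies (OTs) used in equine joint disease. Monocytes from the blood of horses were differentiated for 5 days with 30 ng/ml M-CSF, and RNA was sequenced from 5 conditions with 3 libraries each. Untreated macrophages received M-CSF only, and the other 4 conditions also received IL-1ß at 10 ng/ml. The IL-1ß condition received no OT, whereas in the MSC-CM, PRP lysate and ACS conditions 25% of the culture medium was, respectively, medium conditioned by bone marrow mesenchymal stromal cells, a lysate of platelet rich plasma, or serum incubated by a commercial ACS procedure. The 3 libraries of each OT came from 3 donor horses, while those of the 2 control conditions are technical replicates per the study. The spread was estimated over all 15 libraries, 6 of them such technical replicates, so that the p-values of every comparison rest partly on technical spread. Macrophages were exposed for 24 h and washed, and the study's methods add 24 h of culture before collection, which the sample descriptions leave out. The levels below are thus levels long after the first exposure, at a single time.

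Immediate early genes are transcribed within minutes of a stimulus from factors that the cell already holds, such as SRF with its ELK partners, CREB and NF-kB, without new protein synthesis. Their mRNAs are short-lived, and many of their products are transcription factors that set the next wave of genes. In macrophages the NR4A receptors, which act without a known physiological ligand, and the EGR factors are known as products of inflammatory, growth factor and adhesion signals. Feedback is part of the same circuit, with the dual specificity phosphatases (DUSP) switching off MAP kinases, the SPRY proteins limiting receptor tyrosine kinase signals, and NAB1 and NAB2 binding EGR factors and repressing their targets.

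The libraries held 28410733 to 47894070 reads counted on genes, so that 1 read was worth 0.0209 to 0.0352 CPM, and the 10 genes had from 8 to 38941 reads per library. CD68 (1340 to 2160 CPM) and MRC1 (515 to 3390 CPM) marked the cells as macrophages, whereas CD14 was at 1.38 to 4.32 CPM and ITGAM at 1.10 to 3.47 CPM. All 8 T cell markers looked for were also present, with summed levels of 919 to 1190 CPM with ACS, 967 to 2160 with PRP lysate, 1510 to 1660 with MSC-CM, 1080 to 2110 with IL-1ß and 766 to 1130 without treatment. As these are bulk samples, fewer cells of a type and less RNA per cell cannot be told apart for any gene. Before the results, 3 libraries have to be named that stood apart on the first principal component, which carried 55.4% of the variance. Their scores were -103 for IL-1ß replicate 3, -51.7 for PRP lysate replicate 1 and -20.7 for MSC-CM replicate 1, against -8.15 to 26.6 in the other 12, and the summed level of 66 ribosomal protein genes was 66400, 51000 and 47400 CPM in them against 27300 to 39500 CPM elsewhere. Values without them are given below where a call or a value turned on them.

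Of the NR4A receptors, NR4A3 (ENSECAG00000011929, chromosome 25 of EquCab3.0, 6508268 to 6541316) was at 37.1, 85.5 and 126 CPM in the untreated libraries and at 64.7, 44.5 and 8.23 CPM in the IL-1ß libraries. It was at 32.5, 79.0 and 51.0 CPM with MSC-CM, at 122, 134 and 119 CPM with PRP lysate, and at 165, 231 and 274 CPM with ACS. The ACS libraries lay above every other library, the PRP lysate libraries lay close together and above all MSC-CM and IL-1ß libraries, and the lowest value of all was that of IL-1ß replicate 3. In order of the means, IL-1ß (39.1 ± 28.6 CPM, SD, n = 3), MSC-CM (54.2 ± 23.4), untreated (82.8 ± 44.5) and PRP lysate (125 ± 7.92) each overlapped with the next, and only ACS (223 ± 54.5) lay apart from its neighbour.

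NR4A1 (ENSECAG00000016661, chromosome 6, 70094777 to 70110740), the family member best known from the apoptosis of lymphocytes, had group means between 8.62 ± 0.888 CPM with PRP lysate and 10.9 ± 3.82 CPM with IL-1ß (SD, n = 3 each). NR4A2 (ENSECAG00000014232, chromosome 18, 37575139 to 37592476), known for its part in dopamine neurons, had group means between 6.27 ± 1.43 CPM with PRP lysate and 7.17 ± 0.483 CPM with ACS. For both genes every group overlapped with its neighbour in the order of means. Over all 10 comparisons between conditions the log2 fold changes of NR4A1 lay between -0.26 and 0.16 and those of NR4A2 between -0.19 and 0.18, with standard errors of 0.273 and 0.246.

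**Figure D1:**
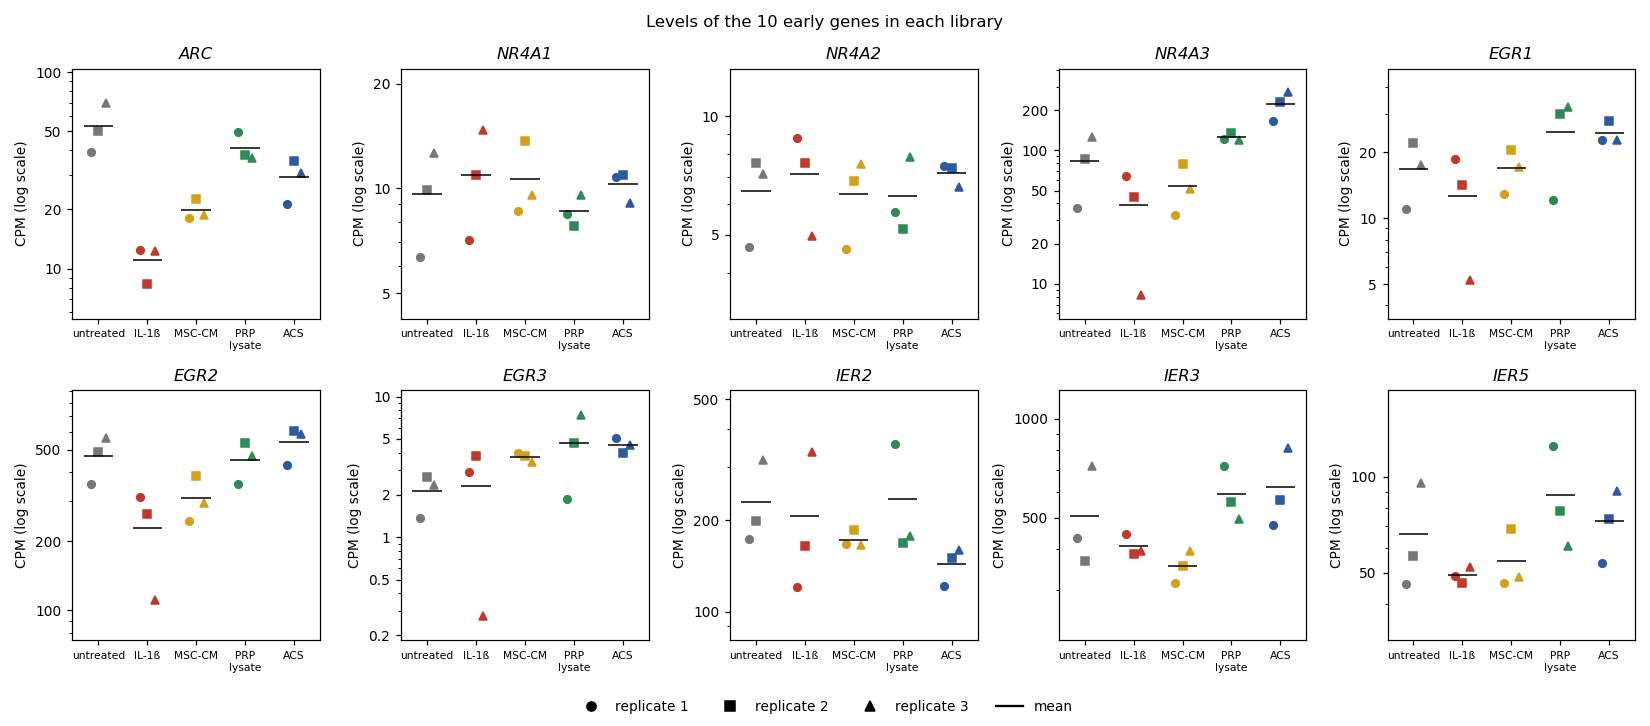
CPM of the 10 genes (y axes, log scale) in the 3 libraries of each of the 5 conditions (x axes), 1 point per library, with a horizontal line at each group's mean. NR4A3 stands highest in the 3 ACS libraries (165 to 274 CPM) and ARC lowest in the 3 IL-1ß libraries (8.33 to 12.5 CPM), while NR4A1 and NR4A2 keep group means of 8.62 to 10.9 and 6.27 to 7.17 CPM.

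ARC (ENSECAG00000001167, chromosome 9, 83596455 to 83597652), which in neurons is made on synaptic activity and is known also from migrating dendritic cells, followed another order. Its levels were 39.1, 50.3 and 69.5 CPM in the untreated libraries and 12.5, 8.33 and 12.2 CPM with IL-1ß. They were 18.1, 22.5 and 18.8 CPM with MSC-CM, 49.4, 37.8 and 36.4 CPM with PRP lysate, and 21.2, 35.5 and 30.6 CPM with ACS. Every IL-1ß library lay below every library of the other 4 conditions. The order of the means was IL-1ß (11.0 ± 2.31 CPM, SD, n = 3), MSC-CM (19.8 ± 2.34), ACS (29.1 ± 7.25), PRP lysate (41.2 ± 7.15) and untreated (53.0 ± 15.4), in which MSC-CM overlapped with ACS, and PRP lysate with untreated, while the other neighbours lay apart.

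Of the EGR factors, EGR2 (ENSECAG00000010818, chromosome 1, 52384286 to 52390542), a regulator of macrophage and Schwann cell differentiation, was at 357, 490 and 563 CPM in the untreated libraries and at 312, 263 and 111 CPM with IL-1ß. With MSC-CM it was at 244, 385 and 293 CPM, with PRP lysate at 355, 534 and 471 CPM, and with ACS at 431, 606 and 585 CPM. The IL-1ß libraries lay below all untreated, PRP lysate and ACS libraries, while the MSC-CM libraries overlapped with all groups but ACS, below which they lay.

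EGR1 (ENSECAG00000014338, chromosome 14, 37340546 to 37343221), the factor most often used as a marker of recent stimulation, ran from 5.22 CPM in IL-1ß replicate 3 to 32.2 CPM in PRP lysate replicate 3. Its untreated libraries (11.0, 22.1 and 17.5 CPM) lay below its ACS libraries (22.8, 27.9 and 22.9 CPM), while the other neighbours in the order of means overlapped. EGR3 (ENSECAG00000023741, chromosome 2, 51786204 to 51788631), which acts with EGR2 in lymphocytes, was the least read of the 10, with group means of 2.14 ± 0.680 CPM in untreated macrophages and 4.66 ± 2.76 CPM with PRP lysate (SD, n = 3 each). The 8 reads of EGR3 in IL-1ß replicate 3 were the lowest count of any of these genes in any library.

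The IER genes overlapped between neighbouring conditions in the order of their means, except that IER2 was lower in all ACS than in all MSC-CM libraries. IER3 (ENSECAG00000017157, chromosome 20, 30672803 to 30673358), known for modulating cell survival, was at 432, 369 and 718 CPM in untreated macrophages, 445, 386 and 396 with IL-1ß, 317, 355 and 396 with MSC-CM, 717, 559 and 495 with PRP lysate and 474, 566 and 813 with ACS. All MSC-CM libraries lay below all PRP lysate and all ACS libraries. IER2 (ENSECAG00000041395, chromosome 7, 46619101 to 46619773), a nuclear protein, ran from 121 to 357 CPM, and its 2 highest values, 357 and 335 CPM, were those of PRP lysate replicate 1 and IL-1ß replicate 3. IER5 (ENSECAG00000031589, chromosome 5, 15634774 to 15635710), a cofactor of the heat shock factor HSF1, had group means between 49.1 ± 2.77 CPM with IL-1ß and 87.8 ± 33.1 CPM with PRP lysate.

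In the comparison of IL-1ß with untreated macrophages, which the choice of the genes used, 8 of the 10 genes had a negative log2 fold change. ARC was at -2.15 (SE 0.244, on the scale of log2(CPM + 1)), NR4A3 at -1.31 (SE 0.613), EGR2 at -1.14 (SE 0.332) and EGR1 at -0.49 (SE 0.430). The other 6 genes lay between -0.35 and 0.16. The median over the 10 genes was -0.30, and over all 11628 genes tested it was -0.07. ARC and EGR2 were the 2 genes whose IL-1ß libraries all lay below the untreated ones, as they did for 8.22% of all genes. Several of these values rested on IL-1ß replicate 3, without which NR4A3 was at -0.45, EGR2 at -0.69, EGR1 at 0.01, EGR3 at 0.48 and IER2 at -0.65, while ARC was at -2.23. The value of EGR1 lay anywhere between -0.83 and 0.01 as 1 library or another was left out, and that of IER5 between -0.58 and -0.06. All 8 T cell markers had a positive value here (median 0.65), with 0 called and 5 at an unadjusted limma p of at most 0.05. By limma 1 of 2 platelet and 1 of 5 dendritic cell markers were called higher, and 1 of 3 endothelial markers lower. Macrophage, B cell and NK cell markers had 0 calls. The part of these cell types was not tested.

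In the comparison of ACS with IL-1ß, also used by the choice, NR4A3 was higher by 2.86 (SE 0.613) on the log2 scale, and by 2.01 without IL-1ß replicate 3. EGR2 was higher by 1.35 (SE 0.332), ARC by 1.32 (SE 0.244), EGR1 by 1.05 (SE 0.430) and EGR3 by 0.93 (SE 0.448). IER3 was at 0.56, IER5 at 0.52, NR4A2 at 0.04, NR4A1 at -0.03 and IER2 at -0.39. Without IL-1ß replicate 3, EGR2 was at 0.90, EGR1 at 0.55, EGR3 at 0.35 and IER2 at 0.02, while ARC was at 1.40. All ACS libraries lay above all IL-1ß libraries for 7 of the 10 genes, against 14.9% of all genes. The median over the 10 genes was 0.75, and over all genes 0.13. Scaling with RLE size factors moved the latter to 0.02 and the former to 0.66. Of 11 macrophage markers limma called 2 lower with ACS, edgeR called 3 and DESeq2 5. Of 3 endothelial markers limma called 1 lower, with summed levels of 101 to 131 CPM against 246 to 504. Of 8 T cell markers 0 had a positive value (median -0.44), with 0 called. The other cell type lists had 0 calls by limma. The part of these cell types was not tested.

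The comparison of PRP lysate with MSC-CM, the 2 groups that the choice of the genes did not use, could be tested for all 10. ARC was 41.2 ± 7.15 CPM with PRP lysate and 19.8 ± 2.34 CPM with MSC-CM (SD, n = 3 each). The PRP lysate libraries (36.4 to 49.4 CPM) all lay above the MSC-CM libraries (18.1 to 22.5 CPM). The log2 fold change was 1.01 (SE 0.244, 95% interval 0.49 to 1.54, limma adjusted p = 0.0334), past the threshold of an adjusted p of at most 0.05 and a 2-fold difference. The study used this threshold for its comparisons other than that of MSC-CM, for which it took an unadjusted p. ARC was the 1 gene of 10 called, and 2.61% of all genes tested were called in this comparison, 0.800% as higher and 1.81% as lower with PRP lysate. DESeq2 (1.15, DESeq2 adjusted p = 0.00174) and edgeR (1.12, edgeR adjusted p = 0.0329) called ARC as well. By limma the call of ARC was close to both limits, and it ended when only these 2 groups were fitted (limma adjusted p = 0.0532). Leaving out any 1 of the 6 libraries ended it too, with log2 fold changes of 0.88 to 1.10 and limma adjusted p of 0.0613 to 0.137. Without the 3 libraries that stood apart the log2 fold change was 0.82 (limma adjusted p = 0.0659).

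NR4A3 was at 125 ± 7.92 CPM with PRP lysate and 54.2 ± 23.4 CPM with MSC-CM, with every PRP lysate library above every MSC-CM library. Its log2 fold change of 1.28 was larger than that of ARC, but it did not pass the test (SE 0.613, 95% interval -0.04 to 2.61, limma adjusted p = 0.370). That SE rests on the spread over all 15 libraries. With only these 2 groups fitted the SE was 0.299, and NR4A3 was not called either (limma adjusted p = 0.0938). Without the 3 libraries that stood apart it was at 0.98 (limma adjusted p = 0.154). IER3 (0.72, SE 0.244, limma adjusted p = 0.144) was the third gene whose groups lay apart, so that 3 of 10 did, all higher with PRP lysate, against 19.4% of all genes in either direction and 7.24% in this one. IER5 (0.63), EGR2 (0.56), EGR1 (0.43), IER2 (0.35) and EGR3 (0.13) had overlapping groups, as had NR4A2 (-0.01) and NR4A1 (-0.25). Of these, IER5 was at 0.35 and IER2 at 0.00 without PRP lysate replicate 1, and EGR1 lay between 0.20 and 0.86 as each library was left out. Intervals that include 0 do not show that these genes were alike, and that of EGR2 reached from -0.15 to 1.28. The median over the 10 genes was 0.50, against -0.09 over all genes.

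Libraries of PRP lysate and MSC-CM that bear the same replicate number deviated from their group means together. Replicate 1 of each group was also among the 3 libraries that stood apart, so the same-numbered pairs are not independent evidence of a pairing. With the number as a block in these 6 libraries alone, the log2 fold change of ARC was 1.01 (SE 0.182, limma adjusted p = 0.0161) and that of NR4A3 1.28 (SE 0.207, limma adjusted p = 0.0109), so that 2 of the 10 genes were called against 3.49% of all genes. That fit was added after the data had been seen. With the number as a block in all 12 numbered libraries, neither gene was called, and ARC had a limma adjusted p of 0.119. Of 11 macrophage markers tested, 4 were called lower with PRP lysate than with MSC-CM, namely CD163, AIF1, C1QC and MERTK, and the summed level of the list was 1980 to 4030 CPM against 4240 to 5250. Of 5 dendritic cell markers tested 2 were called lower, although the summed level of that list was 494 to 692 CPM against 423 to 464 CPM, while CLEC9A, which defines a dendritic cell subset, was at 0 in 14 of the 15 libraries. None of 8 T cell markers was called by limma, edgeR or DESeq2 in this comparison, and 0 had an unadjusted p of at most 0.05. Of 5 NK cell markers tested 0 were called by limma or edgeR and 2 by DESeq2, with summed levels of 354 to 806 CPM with PRP lysate against 285 to 348. Of 2 platelet markers tested 1 rose, PPBP, to 27.2 ± 14.8 from 4.97 ± 0.720 CPM (limma adjusted p = 0.0103), while GP9 and GP1BA, which define platelets, were at 0 in 5 and 7 of the 15 libraries. The platelet list summed to 12.2 to 41.4 CPM with PRP lysate against 6.53 to 9.15. The endothelial list summed to 52.5 to 81.7 CPM against 178 to 396, and of 3 endothelial markers tested 1 fell, PECAM1, which leukocytes also express, to 63.7 ± 13.4 from 286 ± 110 CPM (limma adjusted p = 0.00356). VWF, which defines endothelium, was at 0 in 11 of the 15 libraries. Of 4 B cell markers tested 0 were called by limma or edgeR and 1 by DESeq2, and 0 of 5 stromal markers in the files had enough reads to be tested. The part of these cell types in the values of ARC and NR4A3 was not tested.

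With ACS against MSC-CM, 0 of 9 genes tested were called by limma, and 1.23% of all genes were. DESeq2 and edgeR called 0 as well, and 2 genes had an unadjusted p of at most 0.05. These were IER3, at 618 ± 175 CPM against 356 ± 39.4 CPM (log2 fold change 0.76, SE 0.244, limma adjusted p = 0.153), and EGR2, at 541 ± 95.7 CPM against 307 ± 71.2 CPM (0.82, SE 0.332, limma adjusted p = 0.289). ARC was at 0.51, with an interval of -0.02 to 1.04. Including the untested NR4A3 (2.08), 5 of 10 genes lay above and IER2 lay below in every library, against 12.9% of all genes that lay above and 35.1% whose groups did not overlap in either direction. Of 11 macrophage markers tested, 2 were called lower with ACS than with MSC-CM by limma, and edgeR called 2 and DESeq2 1, those by limma being CD163 and MERTK, with summed levels of the list of 3560 to 4770 CPM against 4240 to 5250. The endothelial list summed to 101 to 131 CPM against 178 to 396, with 0 of 3 called by limma or edgeR and 1 by DESeq2. T cell markers had summed levels of 919 to 1190 CPM with ACS against 1510 to 1660 with MSC-CM, with 0 of 8 called and 6 at an unadjusted p of at most 0.05. With 0 called by limma, edgeR or DESeq2, the summed levels also lay apart for the dendritic cell list (502 to 673 CPM with ACS against 423 to 464), the platelet list (11.6 to 17.8 against 6.53 to 9.15) and the B cell list (13.4 to 19.3 against 22.2 to 29.8). The part of these cell types in the values was not tested. In PRP lysate against ACS, 0 of 9 genes were called by limma, edgeR or DESeq2, 0 had an unadjusted p of at most 0.05, and 0.0946% of all genes were called. ARC again was at 0.51 (interval -0.02 to 1.03), higher in every PRP lysate library and at 0.30 without ACS replicate 1, whereas NR4A3 was at -0.80 and lower in every PRP lysate library, with no test. The groups did not overlap for 3 of the 10 genes and for 15.6% of all genes. Macrophage markers were called lower with PRP lysate than with ACS for 2 of 11. The other cell type lists had 0 calls by limma or edgeR, and DESeq2 called 1 dendritic cell marker. All 8 T cell markers had a positive value (median 0.41), and the endothelial list summed to 52.5 to 81.7 CPM against 101 to 131. The part of these cell types was not tested.

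Against IL-1ß alone, 0 of 8 genes tested were called with PRP lysate by limma, and 3.09% of all genes were called. By DESeq2 and edgeR 0 were called too, and 3 had an unadjusted p of at most 0.05. EGR2 came closest, at 454 ± 90.6 CPM against 229 ± 105 CPM (log2 fold change 1.10, SE 0.332, 95% interval 0.38 to 1.81, limma adjusted p = 0.0854). It was called with RLE size factors (1.00, limma adjusted p = 0.0497) and without IL-1ß replicate 1 (1.38, limma adjusted p = 0.0330). With DESeq2 it was at 0.94 (DESeq2 adjusted p = 0.0188), under the 2-fold limit. It was smaller, and not called, without IL-1ß replicate 3 (0.64, limma adjusted p = 0.168), without PRP lysate replicate 2 (0.97, limma adjusted p = 0.247) and without the 3 libraries that stood apart (0.81, limma adjusted p = 0.0309, under the 2-fold limit). EGR1 (0.95, SE 0.430, limma adjusted p = 0.268) and IER5 (0.76, SE 0.301, limma adjusted p = 0.196) were the other 2, and they were at 0.46 without IL-1ß replicate 3 and at 0.48 without PRP lysate replicate 1, respectively. The untested values of NR4A3 (2.06) and ARC (1.82) were the largest 2 of this comparison, and without IL-1ß replicate 3 they were 1.20 and 1.90. All PRP lysate libraries lay above all IL-1ß libraries for 5 of the 10 genes, against 8.50% of all genes. These include the untested ARC and NR4A3, which were chosen on values of the IL-1ß libraries, and the others were EGR2, IER3 and IER5. Of 11 macrophage markers tested, 5 were called lower with PRP lysate than with IL-1ß alone by limma, and edgeR called 5 and DESeq2 7, those by limma being CD163, MARCO, AIF1, C1QC and MERTK. The median over the list was -1.21, and its summed level was 1980 to 4030 CPM against 3320 to 6320. The dendritic cell marker FLT3 and the endothelial marker PECAM1 were also called lower, each as the 1 call in its list by limma. Over the whole lists, 3 of 5 dendritic cell markers had a positive log2 fold change (median 0.15), with summed levels of 494 to 692 CPM with PRP lysate against 394 to 498. The same held for 2 of 3 endothelial markers (median 0.01), with summed levels of 52.5 to 81.7 CPM against 246 to 504. Of the T cell, NK cell, B cell and platelet markers 0 were called by limma or edgeR, and DESeq2 called 1 NK cell and 1 B cell marker. The part of these cell types in the values of this comparison was not tested.

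With MSC-CM against IL-1ß alone, 0 of 8 genes tested were called by limma (0.00% of all genes), 0 by DESeq2 and edgeR, and 0 had an unadjusted p of at most 0.05. The largest tested value was that of EGR3 (0.71, 95% interval -0.26 to 1.68), followed by EGR2 (0.53) and EGR1 (0.52). Without IL-1ß replicate 3 these were 0.12, 0.08 and 0.03, and the untested value of NR4A3 went from 0.78 to -0.08. ARC, which was not tested, was at 0.81 and was the 1 gene of 10 that was higher in every MSC-CM library, against 7.25% of all genes. The median over the 10 genes was 0.32 and over all genes 0.16, and with RLE size factors these became 0.16 and 0.00.

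Each OT condition was also set against untreated macrophages, that is, cells with neither IL-1ß nor OT. No gene was called by limma, edgeR or DESeq2, with 0 of 9 for MSC-CM (0.662% of all genes), 0 of 9 for PRP lysate (1.60%) and 0 of 8 for ACS (0.370%), and 0 had an unadjusted p of at most 0.05 in any of the 3. With PRP lysate the largest values were those of NR4A3 (0.75, 95% interval -0.57 to 2.08) and EGR3 (0.74, -0.22 to 1.71), and the groups overlapped for all 10 genes, against 18.6% of all genes whose groups did not. NR4A3 was at 0.27 without untreated replicate 1, and EGR3 at 0.39 without PRP lysate replicate 3. With PRP lysate against untreated macrophages limma called 4 of 11 macrophage, 1 of 5 dendritic cell and 1 of 3 endothelial markers lower, and 1 of 5 NK cell and 1 of 2 platelet markers higher. All 8 T cell markers had a positive value there (median 0.64), with 0 called and 5 at an unadjusted p of at most 0.05. The part of these cell types was not tested. Without the 3 libraries that stood apart EGR3 was called in this comparison (1.17, limma adjusted p = 0.0104). With ACS the libraries did not overlap with the untreated ones for 5 of the 10 genes, against 26.3% of all genes, with NR4A3 (1.56, not tested), EGR1 (0.56) and EGR3 (0.83) above and ARC (-0.83, not tested) and IER2 (-0.63) below. EGR1 was at 0.30 without untreated replicate 1, and IER2 at -0.38 without untreated replicate 3. With ACS limma called 1 of 2 platelet markers higher and no other marker, while DESeq2 called 2 of 3 endothelial and 1 of 11 macrophage markers. Summed levels lay apart for the platelet (11.6 to 17.8 CPM against 3.62 to 5.86), dendritic cell (502 to 673 against 367 to 486) and endothelial lists (101 to 131 against 165 to 291). The part of these cell types was not tested. With MSC-CM the untested ARC (-1.34) was below in every library and EGR3 (0.61) above in every library, 2 of 10 genes against 30.8% of all genes. Since the OT comparisons share the untreated or the IL-1ß libraries, their values are not independent of each other.

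**Figure D2:**
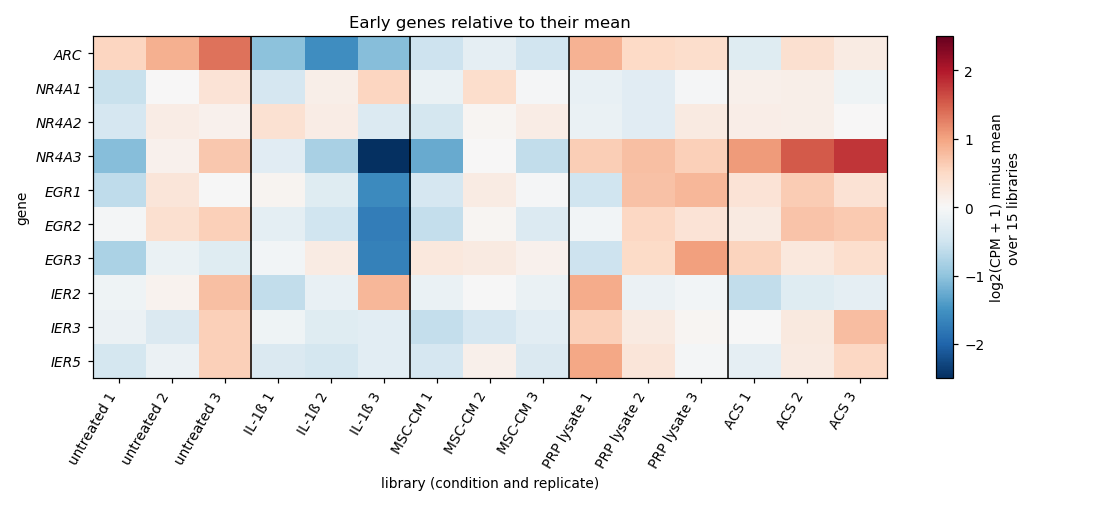
Level of each of the 10 genes (rows) in each of the 15 libraries (columns), as log2(CPM + 1) minus the gene's mean over the libraries. ARC runs from -1.56 in IL-1ß replicate 2 to 1.36 in untreated replicate 3, NR4A1 from -0.555 to 0.546 and NR4A2 from -0.434 to 0.376.

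The libraries that stood apart held several of the extreme values of their groups. In IL-1ß replicate 3, NR4A3 was at 0.151, EGR3 at 0.0829, EGR1 at 0.317 and EGR2 at 0.386 times the mean of the other 2 IL-1ß libraries, while IER2 was at 2.35 times that mean and ARC at 1.17 times. In PRP lysate replicate 1, EGR3 was at 0.311 and EGR1 at 0.391 times the mean of the other 2 PRP lysate libraries, IER2 at 2.06, IER5 at 1.80, ARC at 1.33 and NR4A3 at 0.963 times. Both libraries thus had lower EGR1 and EGR3 and higher IER2 than the others of their group. In MSC-CM replicate 1, NR4A3 was at 0.50 and EGR1 at 0.685 times the mean of the other 2. There EGR3 was at 1.1 and IER2 at 0.949 times that mean. The ribosomal protein level was higher in all libraries that stood apart than elsewhere, and its part in these values was not tested.

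Within the families the balance of members could be compared between conditions, since the length of a transcript cancels from a ratio of CPM between the same 2 genes. The ratio of NR4A3 to NR4A1 was 12.5 to 17.2 in the PRP lysate libraries, 15.3 to 30.2 with ACS, 3.79 to 5.76 with MSC-CM, 0.559 to 9.13 with IL-1ß and 5.86 to 9.95 in untreated macrophages. All PRP lysate and ACS libraries lay above all others. Between PRP lysate and MSC-CM, the pair the choice did not use, the mean log2 ratio differed by 1.57 for NR4A3 to NR4A1 and by 1.31 for NR4A3 to NR4A2. The ratio of EGR2 to EGR1 was 14.6 to 29.2 with PRP lysate and 17 to 18.9 with MSC-CM, a difference of 0.11. The ratio of ARC to EGR2 differed by 0.48, and that of NR4A3 to EGR2 by 0.73. These 5 ratios were chosen after their values were seen, so no conclusion is drawn from a test of them. The exact permutation tests that were run, of 3 libraries against 3, gave p of 0.1 to 0.9 and cannot go below 0.1.

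**Figure D3:**
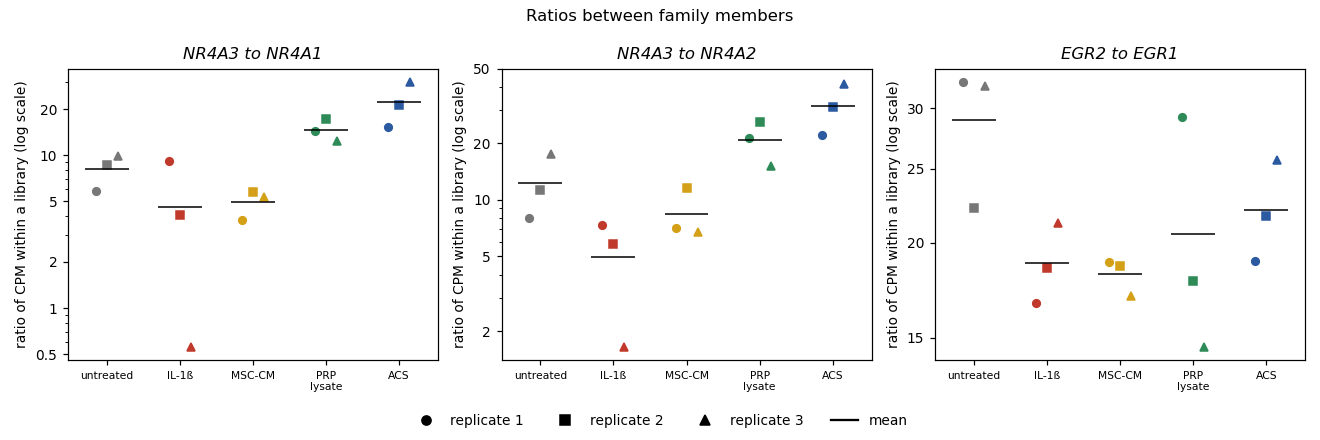
Ratios of CPM between pairs of these genes (y axes, log scale) in the 3 libraries of each condition (x axes), with a horizontal line at each group's mean. The ratio of NR4A3 to NR4A1 is 12.5 to 30.2 in the PRP lysate and ACS libraries and at most 9.95 in the others, while that of EGR2 to EGR1 overlaps between PRP lysate and MSC-CM.

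The rest of the early response circuit was counted in lists written from general knowledge. Of 26 other immediate early genes tested, 0 were called in PRP lysate against MSC-CM by limma or edgeR and 1 by DESeq2, while 9 had an unadjusted p of at most 0.05, and their median log2 fold change was 0.29, against -0.09 over all genes. In PRP lysate against IL-1ß 1 of the 26 was called by limma, edgeR and DESeq2 alike, near the 3.09% of all genes called there, while 12 had an unadjusted p of at most 0.05. By limma it was FOSL1, an AP-1 subunit of the FOS family, which rose from 7.51 ± 1.13 to 17.8 ± 5.06 CPM (log2 fold change 1.11, SE 0.223, limma adjusted p = 0.0108). FOSL1 was no longer called without PRP lysate replicate 2 (1.00), PRP lysate replicate 3 (0.97) or IL-1ß replicate 2 (1.02). Nor was it called when only the 2 groups were fitted (limma adjusted p = 0.292) or with the replicate block (limma adjusted p = 0.0537). In MSC-CM against untreated macrophages 1 of the 26 was called by limma and edgeR and 3 by DESeq2, against 0.662% of all genes by limma. Of the 26, 5 had a positive log2 fold change and 10 an unadjusted p of at most 0.05, and their median was -0.37, against 0.10 over all genes. The gene called by limma was FOSL1, which fell to 9.26 ± 1.00 from 19.6 ± 1.70 CPM (-1.01, limma adjusted p = 0.0404), and leaving out any 1 of the 6 libraries ended that call (-1.07 to -0.93). In ACS against MSC-CM 2 of the 26 were called by limma and DESeq2 and 1 by edgeR, against 1.23% of all genes by limma. By limma HBEGF, a ligand of the EGF receptor, rose to 269 ± 11.6 from 111 ± 12.8 CPM (1.28, limma adjusted p = 0.0138) and KLF2, a transcription factor known from quiescent T cells and from myeloid cells, fell to 22.0 ± 0.526 from 89.4 ± 8.05 CPM (-1.97, limma adjusted p = 0.0351). The call of HBEGF was lost in 5 of 6 fits that left out 1 library (1.21 to 1.37 over the 6, limma adjusted p = 0.0289 to 0.0828), and that of KLF2 in 6 of 6 (limma adjusted p = 0.104 to 0.144). KLF2 was also not called with edgeR (adjusted p = 0.0640), RLE (limma adjusted p = 0.0590) or TMM scaling (limma adjusted p = 0.0536) or without the filter (limma adjusted p = 0.0560), and the cell type markers given above for this comparison moved in the same libraries. In MSC-CM against untreated macrophages, where FOSL1 fell, the T cell markers had summed levels of 1510 to 1660 CPM against 766 to 1130, with 1 of 8 called higher by limma, 0 by edgeR and DESeq2, and 7 at an unadjusted p of at most 0.05. Of 3 endothelial markers tested 1, CDH5, was called lower there, while the list had a median of -0.05 and summed levels of 178 to 396 CPM against 165 to 291. The part of these cell types in the values of FOSL1, HBEGF and KLF2 was not tested. The list had 0 calls by limma in the other 4 tested comparisons, and 1 each by edgeR and DESeq2 in 1 of these, PRP lysate against untreated macrophages.

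Of 17 genes of the feedback arm and of binding partners tested, limma, edgeR and DESeq2 called 1, 1 and 4 in PRP lysate against MSC-CM, 2, 2 and 4 in PRP lysate against IL-1ß, 1, 1 and 1 in ACS against MSC-CM, and 0, 1 and 2 in MSC-CM against untreated macrophages. In the other 4 tested comparisons 0 were called by any of the 3 tools, with 0 to 3 at an unadjusted p of at most 0.05. DUSP5, a nuclear phosphatase of ERK, was at 112 ± 6.97 CPM with PRP lysate, 95.6 ± 1.28 with ACS, 41.0 ± 7.57 with MSC-CM, 44.4 ± 5.34 with IL-1ß and 79.9 ± 27.2 in untreated macrophages. It rose in PRP lysate against MSC-CM by 1.44 (SE 0.204, limma adjusted p = 0.00132) and against IL-1ß by 1.32 (limma adjusted p = 0.00193), and both calls held whichever library was left out. It rose also in ACS against MSC-CM by 1.22 (limma adjusted p = 0.00787), and this call was lost without MSC-CM replicate 3 (1.15, limma adjusted p = 0.0559). SPRY2 rose in PRP lysate against IL-1ß, to 32.0 ± 14.7 from 10.8 ± 2.37 CPM (1.38, limma adjusted p = 0.0297), and was called in 1 of 6 fits that left out a library (1.12 to 1.83, limma adjusted p = 0.00119 to 0.135). Its call was also lost when only the 2 groups were fitted (limma adjusted p = 0.388) and with the replicate block (limma adjusted p = 0.0654). Macrophage markers were called lower in each of these 3 comparisons, as given above, and their part in the values of DUSP5 and SPRY2 was not tested. Of 22 upstream factors tested, among them SRF, its ELK and MRTF partners, CREB1, ERK kinases and MEF2 factors, 0 were called in any of the 8 tested comparisons by limma, edgeR or DESeq2, with 0 to 5 at an unadjusted p of at most 0.05. Of 10 heat shock genes tested 0 were called by limma, edgeR or DESeq2 in any of them, with 0 to 3 at such an unadjusted p. As 0.00% to 3.09% of all genes were called in these comparisons, counts of 0 do not set either list apart.

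**Figure D4:**
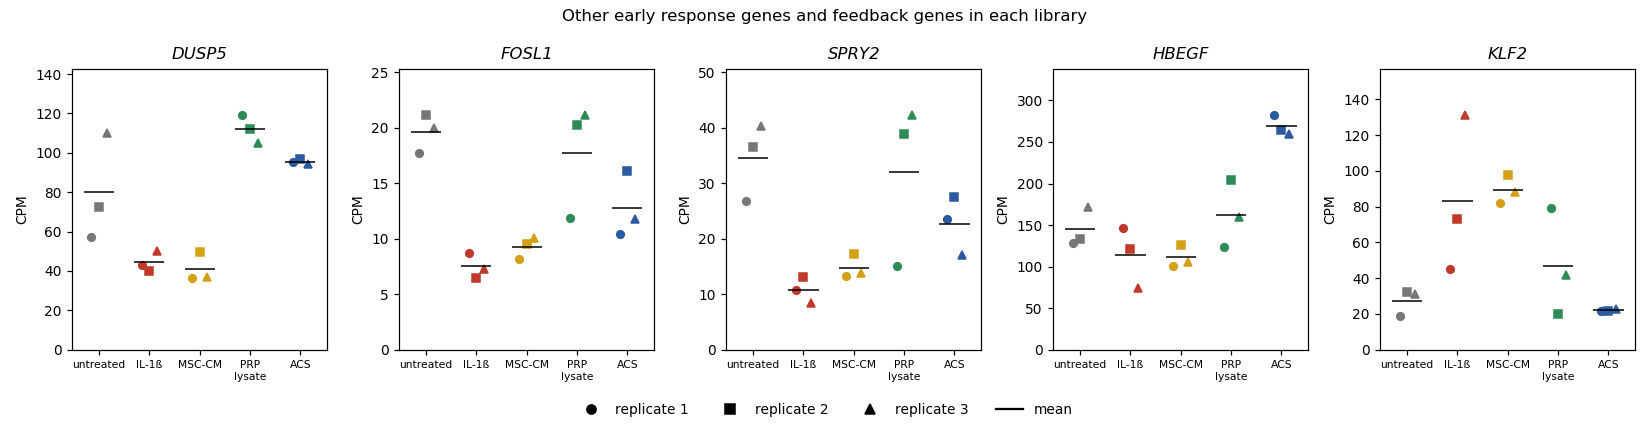
CPM of other early and feedback genes (y axes, linear from 0) in the 3 libraries of each condition (x axes), with a horizontal line at each group's mean. DUSP5 lies at 105 to 119 CPM with PRP lysate and 94.5 to 97.0 with ACS, above all MSC-CM (36.4 to 49.7) and IL-1ß (39.9 to 50.3) libraries.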

How the data were processed

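The authors trimmed reads in Partek Flow with cutadapt, aligned them to EquCab3.0 with STAR 2.7.3 and used HTSeq for gene counts, from which the deposited CPM were made, with column sums of 982495 to 991421. The strand setting of the counting is not given in the sources used here. Transcript lengths were not used, so levels of different genes were not compared. No other listed gene overlaps any of the 10.

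Differences were tested with limma 3.58.1 (R 4.3.3), with an intensity trend, on log2(CPM + 1) of 11628 genes, those averaging 1 CPM or more, in a model of the 5 conditions over all 15 libraries. Benjamini-Hochberg adjustment was over all genes within each comparison, and a call needed an adjusted p of at most 0.05 and a fold of at least 2. Log2 fold changes on this scale understate those of genes with few reads. The values were whole multiples of 1 read (100.0% of 125498 low values within 0.05 of a read), and the recovered reads served edgeR 4.0.16 and DESeq2 1.42.0. The recovery of reads was tested on simulated data. Further alternatives were RLE and TMM scaling, a pseudocount of 0.1, no fold threshold, no filter, a fit of the 2 groups alone, the replicate number as a block, and leaving out each library.

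The genes and lists were chosen with earlier results of these data known. Of the other genes, those called in a list with the largest changes were named, up to 3 per comparison, and the 5 most correlated with ARC and with NR4A3. Libraries of a group differed beyond sampling noise (chi-square per degree of freedom 24.7 to 525), so none was counted as a duplicate. Same-numbered libraries of PRP lysate and MSC-CM deviate together from their group means (r = 0.255 to 0.635 over genes, 3 pairs). These 3 correlations are not independent, since replicate 1 of both groups stood apart, and the labels do not say that a number marks a horse. In each of the other 5 pairs of numbered groups at least 1 correlation was below -0.3. ACS libraries carry no number of their own.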

Additional observations from a re-analysis of the deposited data

How the results depend on the processing

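Of the 10 genes, 1 was called over the 8 comparisons tested, and the counts changed as follows. In PRP lysate against MSC-CM the 1 call, ARC, became 0 when only the 2 groups compared were fitted (limma adjusted p = 0.0532), 0 with the replicate block over 12 libraries, 0 without the 3 libraries that stood apart, and 0 to 0 when each library was left out, while it became 2 with the replicate block on the PRP lysate and MSC-CM libraries alone. ARC remained called with edgeR, DESeq2, RLE and TMM scaling, a pseudocount of 0.1 and no filter. In PRP lysate against IL-1ß the count of 0 became 1 with RLE size factors and was 0 to 1 when each library was left out, the gene being EGR2 each time. In PRP lysate against untreated macrophages it became 1, EGR3, without the 3 libraries that stood apart, a setting chosen after seeing the data, as was the block on 6 libraries. The cause of these changes was not tested, beyond the fewer libraries that some of the fits hold. The other 5 comparisons had 0 calls under every alternative run, the replicate block included where numbers allow it. Of the 70 values tested for the 10 genes, 44 kept their sign in every alternative run and 26 changed it in at least 1, all 26 of at most 0.35 in size and with overlapping groups. Of those in PRP lysate against MSC-CM, NR4A2 was at 0.07 with DESeq2, 0.04 with edgeR, 0.06 with RLE and 0.04 with TMM scaling, and at -0.19 to 0.11 as each library was left out, EGR3 was at -0.21 to 0.56 likewise, and IER2 was at -0.02 without the 3 libraries that stood apart. No paired analysis was possible for the comparisons with ACS because its libraries carry no number. Over all genes, PRP lysate against MSC-CM gave 93 higher and 211 lower by limma, 112 and 195 by edgeR, and 201 and 287 by DESeq2. EGR3 had the fewest reads, 8 in 1 library and 54 to 216 in the other 14.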

Other observations

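The genes whose levels were most like that of NR4A3 over the 15 libraries, by Pearson's r of log2(CPM + 1), were SMAD7 (0.981), an inhibitor of TGF-ß signalling, BHLHE40 (0.981), a transcriptional repressor, RAB11FIP1 (0.978), of vesicle recycling, KLHL6 (0.962), a ubiquitin ligase adaptor, and GRK3 (0.959), a kinase of G protein-coupled receptors. BHLHE40 was at 1420 ± 230 CPM with ACS, 1270 ± 51.7 with PRP lysate, 1030 ± 227 in untreated macrophages, 852 ± 145 with MSC-CM and 792 ± 251 with IL-1ß (SD, n = 3 each), the same order of means as NR4A3 but over a narrower range. SMAD7 ran from 45.8 ± 16.8 CPM with IL-1ß to 96.6 ± 16.7 CPM with ACS.

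For ARC the likeness was lower and the genes were others, namely TXNIP (0.894), which binds thioredoxin and limits glucose uptake, CYP2S1 (0.891), BCL7B (0.884), CSRNP1 (0.883), a nuclear protein known as an early gene, and FOSL1 (0.881). TXNIP was at 77.4 ± 9.34 CPM with IL-1ß, 95.6 ± 10.5 with MSC-CM, 145 ± 9.79 with PRP lysate, 155 ± 32.3 with ACS and 158 ± 27.9 in untreated macrophages. These correlations describe the same 15 libraries, share their conditions and the libraries that stood apart, and were given no test. Between ARC and NR4A3 themselves r was 0.555, between ARC and EGR2 0.700, and between ARC and NR4A1 -0.148.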
